A study of Mus musculus with 8 samples.

Results

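The MHC class II presentation set held 7 genes, Cd74, H2-Aa, H2-Ab1, H2-Eb1, H2-DMa, H2-DMb1 and Ciita, chosen by name and read through every probe set that the platform annotation ties to them. Of 12394 genes measured on the arrays, 6 of the 7 had probe sets of their own, 10 probe sets in all. H2-DMb1 had none of its own: 2 further probe sets are annotated to H2-DMb1 and its neighbouring copy H2-DMb2 together, so their signal cannot be assigned to either gene and they are given apart. Labelled cRNA made from total RNA of bone marrow-derived macrophages was hybridised to 8 Affymetrix arrays, 1 for each of 8 groups. No value below therefore has a replicate and no difference has a test.

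The groups were CD14-deficient macrophages (Cd14-/- C57BL/6) left unstimulated or given LPS for 6 h or 24 h, wild-type C57BL/6 macrophages with both LPS and EGTA for 6 h or 24 h, and wild-type macrophages left unstimulated or given LPS for 6 h or 24 h. LPS, a component of the bacterial outer membrane, was used at 1 µg/ml. The labels call it smooth LPS for the wild-type cells and LPS for the CD14-deficient cells. EGTA chelates calcium outside the cell. Its dose, 2 mM, is stated for the 24 h sample and not for the 6 h sample, and there was no array of EGTA without LPS. The donors of all groups were 6 to 8 weeks old, and all marrow was grown for 7 days with M-CSF and 10% serum. Unstimulated cells were harvested 24 h after plating. CD14 is the surface protein that hands LPS to the TLR4 complex. The labels do not state how many mice gave marrow for a sample.

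MHC class II molecules carry peptides from endosomes to the cell surface, where CD4+ T cells read them. H2-Aa and H2-Ab1 encode the alpha and beta chains of the mouse I-A molecule, and H2-Eb1 encodes the beta chain of I-E. Cd74 encodes the invariant chain, which fills the groove of new class II molecules and routes them to endosomes. H2-DMa and H2-DMb1 encode the subunits of DM, which takes the last fragment of the invariant chain out of the groove and edits the bound peptide. Ciita encodes the coactivator that the class II, invariant chain and DM genes need. It does not bind DNA itself but sits on factors held at the X and Y boxes of these promoters, and interferon gamma is its best known inducer in macrophages.

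Promoters of 4 of the 7 genes were matched by symbol, and 1 promoter each of H2-Aa, H2-Eb1 and H2-DMb1 is shown because these have a Y box within the bases nearest the annotated gene start. H2-DMa had 2 promoters, of which 1 held a Y box 198 bases before its start, and they are not printed. The sequences are from RefSeq on GRCm38.p6, 250 bases each, on the strand of the gene. The Y box, searched as CCAAT on both strands, and the X box are in capitals, as is a cyclic AMP response element in H2-Aa.
H2-Aa, chr17:34287824-34288073, minus strand: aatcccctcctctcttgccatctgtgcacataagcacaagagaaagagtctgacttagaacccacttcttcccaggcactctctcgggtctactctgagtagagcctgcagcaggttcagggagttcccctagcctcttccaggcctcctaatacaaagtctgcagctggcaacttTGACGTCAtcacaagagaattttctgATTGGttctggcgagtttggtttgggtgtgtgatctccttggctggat
H2-Eb1, chr17:34305617-34305866, plus strand: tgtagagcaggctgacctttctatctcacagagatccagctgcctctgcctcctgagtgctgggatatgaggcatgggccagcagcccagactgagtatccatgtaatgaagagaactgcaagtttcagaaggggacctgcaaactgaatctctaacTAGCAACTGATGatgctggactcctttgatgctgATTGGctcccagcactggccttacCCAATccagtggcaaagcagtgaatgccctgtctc
H2-DMb1, chr17:34152941-34153190, plus strand: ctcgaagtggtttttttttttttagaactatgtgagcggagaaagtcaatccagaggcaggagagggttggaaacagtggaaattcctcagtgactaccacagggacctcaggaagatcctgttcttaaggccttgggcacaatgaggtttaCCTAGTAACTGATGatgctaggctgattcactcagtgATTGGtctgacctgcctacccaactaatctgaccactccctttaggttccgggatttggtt

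The longer X box consensus, the capital run of H2-DMb1 with some bases left free and searched on both strands, lay 98 bases before the start of H2-DMb1 and in 0.0487% of 32851 promoters of this length. A shorter form, the capital run of H2-Eb1 with 1 base left free, was chosen after the promoters had been read. It overlaps the longer form in H2-DMb1, lay 93 bases before the start of H2-Eb1 and was in 0.0335% of promoters. A Y box followed 61 bases before the start of H2-DMb1, 59 bases before that of H2-Eb1, which had another at 35 bases, and 48 bases before that of H2-Aa. CCAAT is common and lay in 33.8% of promoters. H2-Aa held no match to either X box form but had the palindrome TGACGTCA, also chosen after reading, 74 bases before its start; 1.55% of promoters hold it. These matches describe letters and not binding.

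The arrays were comparable only after normalization, since the trimmed means of the deposited intensities differed by up to 1.68 times between arrays. Values are intensities after quantile normalization, with everything below 38.4, the 40th percentile, raised to that floor. Between a pair of arrays a gene was compared if it passed 88.2, the overall median, on at least 1 of them, and counted as higher or lower at 2-fold. Cd14 was at the floor on all 3 CD14-deficient arrays and between 3849 and 12515 on the 5 wild-type arrays. All 7 macrophage markers were measured well above the floor, with a summed intensity between 49591 and 61512 over the arrays. RNA integrity numbers ran from 9.3 to 9.7, and the 24 h EGTA sample yielded the least labelled cRNA, 31.4 µg, where the 6 h wild-type LPS sample yielded 76 µg.

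Cd74, the invariant chain gene, had 1 probe set. Its intensity was 508, 1079.85 and 2602 in CD14-deficient cells at 0, 6 and 24 h of LPS, 1882 and 8414 in wild-type cells with LPS and EGTA at 6 and 24 h, and 2851, 1367 and 5667 in wild-type cells at 0, 6 and 24 h. The lowest array was the unstimulated CD14-deficient one and the highest the 24 h EGTA one. In wild type the 6 h array was the lowest of the time course, while in CD14-deficient cells the unstimulated array was.

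The I-A alpha chain gene H2-Aa had 2 probe sets. The brighter read 437, 725 and 1559.8 in CD14-deficient cells at 0, 6 and 24 h, 1074 and 4075 with EGTA at 6 and 24 h, and 2042, 1027 and 3018 in wild type at 0, 6 and 24 h. The dimmer read 119.9, 263 and 722 in CD14-deficient cells, 391 and 2746 with EGTA, and 791, 338 and 1883 in wild type. Both put the 8 arrays at the same extremes as Cd74.

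The I-A beta chain gene H2-Ab1 had 3 probe sets. The one that represents it read 215, 613 and 1403 in CD14-deficient cells at 0, 6 and 24 h, 604 and 3062.5 with EGTA at 6 and 24 h, and 928, 575 and 2089 in wild type at 0, 6 and 24 h. A second read 73.7, 458 and 1485 in CD14-deficient cells, 641 and 2752 with EGTA, and 573, 369 and 1777 in wild type. The third was at the floor in unstimulated CD14-deficient cells and read 207 and 702 there at 6 and 24 h, 326 and 1652 with EGTA, and 356, 198 and 1054 in wild type. All 3 had the unstimulated CD14-deficient array lowest and the 24 h EGTA array highest.

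H2-Eb1, for the I-E beta chain, read 124, 355 and 677 in CD14-deficient cells at 0, 6 and 24 h, 413 and 2232 with EGTA at 6 and 24 h, and 605, 356 and 1425 in wild type at 0, 6 and 24 h. At 6 h of LPS the genotypes were level. H2-Ea, the partner alpha chain gene, is not transcribed in mice of the b haplotype such as C57BL/6, and its 3 probe sets are annotated to a gene that RefSeq lists as a transcribed pseudogene. H2-Ea was at the floor on all 8 arrays.

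The DM alpha chain gene H2-DMa read 195.6, 206.5 and 577 in CD14-deficient cells at 0, 6 and 24 h, 380.0 and 1123 with EGTA at 6 and 24 h, and 489, 264 and 890.3 in wild type at 0, 6 and 24 h. Unlike the chain genes above, it stood at nearly the same level at 0 and 6 h in CD14-deficient cells. The brighter of the 2 probe sets shared by H2-DMb1 and H2-DMb2 read 307, 519 and 855 in CD14-deficient cells, 581 and 1790.3 with EGTA, and 535, 519 and 1311 in wild type. On it the wild-type 0 and 6 h arrays were near each other. H2-DMb2's own probe set stayed between 38.4 and 84.8 on all arrays.

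Ciita was dim throughout. Its brighter probe set was at the floor in unstimulated CD14-deficient cells and read 58.1 and 64.2 there at 6 and 24 h, read 137 and 195 with EGTA at 6 and 24 h, and was at the floor in unstimulated wild-type cells and read 89.6 and 116 at 6 and 24 h. The dimmer probe set was at the floor on all 3 CD14-deficient arrays and in unstimulated wild type, and read 54.5 and 103 with EGTA and 43.1 and 55.5 in wild type with LPS at 6 and 24 h. The EGTA arrays were the highest at both times on both probe sets. Values this near the floor are imprecise.

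**Figure D1:**
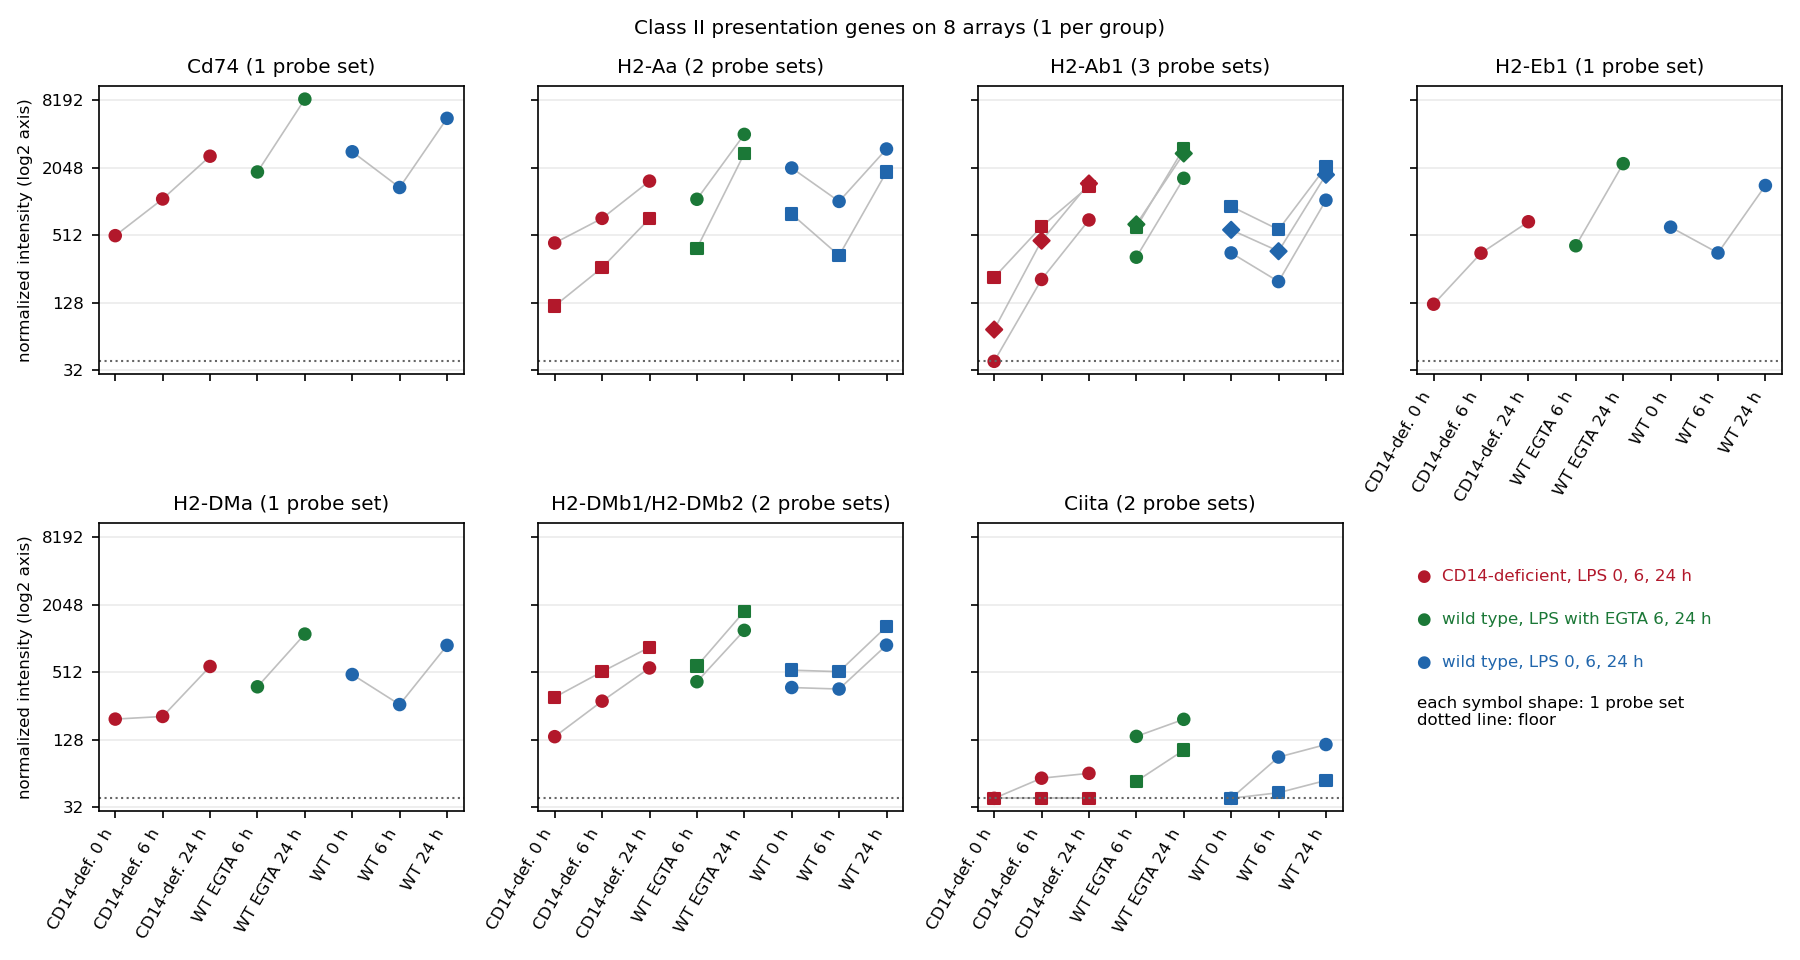
Normalized intensity (log2 axis) of each probe set of the class II presentation genes on the 8 arrays; colours mark CD14-deficient cells, wild-type cells with LPS and EGTA and wild-type cells, symbols mark probe sets, and the dotted line is the floor of 38.4. In wild type the structural genes dip at 6 h and are highest at 24 h, in CD14-deficient cells they start low, and Ciita stays between the floor and 195.

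At 6 h of LPS the structural genes, all members but Ciita, stood on opposite sides of their unstimulated level in the genotypes. In CD14-deficient cells all 5 compared were above it, as were 41.3% of 6929 genes. Of them 3 were past 2-fold, Cd74 by 2.13-fold, H2-Ab1 by 2.85-fold and H2-Eb1 by 2.86-fold, beside 10.3% of genes higher and 8.99% lower. H2-Aa was 1.66-fold and H2-DMa 1.06-fold higher. The dimmer H2-Aa probe set gave 2.19-fold, and the other H2-Ab1 probe sets 6.22-fold and at least 5.38-fold, so the sizes for these genes are uncertain. The median log2 difference was 1.09 over the 5, against -0.13 over all genes. All 5 lay within the central range of all genes, -1.68 to 2.71. That range is the span of the grey boxes in the plot over LPS time. Ciita was not compared, at 58.1 after 6 h.

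In wild type the 5 structural genes were all below their unstimulated level at 6 h, as were 58.3% of 6936 genes. Cd74 was 2.09-fold lower, the one gene past 2-fold, beside 9.5% of genes lower by that much. As deposited Cd74 lay at -0.92 in log2 and H2-DMa, at -1.03, was the one past 2-fold instead. H2-Aa was 1.99-fold, H2-DMa 1.86-fold, H2-Eb1 1.70-fold and H2-Ab1 1.61-fold lower. All 8 of their probe sets were lower, with log2 differences from -1.23 to -0.63. Ciita went the other way, at least 2.34-fold higher on its brighter probe set, beside 10.5% of genes higher, and at least 1.12-fold higher on the dimmer one. The median over the 6 genes was -0.83, against -0.12 over all genes. Each of the 6 lay within the central range of all genes, -1.62 to 2.29. The shared H2-DMb probe sets stood at -0.05 and -0.04.

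These opposite directions rest on the unstimulated arrays, 1 in each genotype, which stood far apart. The 6 h log2 response of CD14-deficient cells exceeded that of wild type by 2.15 for Cd74, 2.20 for H2-Ab1, 2.28 for H2-Eb1, 1.72 for H2-Aa and 0.97 for H2-DMa. These values are from the probe set that represents each gene, and the difference was not tested. With intensities as deposited H2-DMa was no longer above its unstimulated level in CD14-deficient cells, leaving 4 of 5 above it, Cd74 lay at 0.73 in log2, leaving 2 past 2-fold, and over all genes 495 passed 2-fold upward and 1412 downward in place of 714 and 623. With equal medians those counts were 835 and 455.

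By 24 h the class II genes stood above the unstimulated level in both genotypes. In CD14-deficient cells all 5 genes compared were at least 2-fold higher, beside 8.29% of 6908 genes higher and 8.77% lower: H2-Ab1 by 6.52-fold, H2-Eb1 by 5.45-fold, Cd74 by 5.12-fold, H2-Aa by 3.57-fold and H2-DMa by 2.95-fold. Their median was 2.36, against -0.04 over all genes. H2-Ab1, at 2.70, lay above the central range of all genes, -1.99 to 2.45, and the other genes compared lay within it. The other H2-Ab1 probe sets gave 20.1-fold and at least 18.3-fold, over levels of 73.7 and the floor, so the size for this gene is uncertain. Fcgr1 was 2.85-fold higher over the same pair of arrays. It was the 1 of 7 macrophage markers past 2-fold, and the median log2 difference of the 7 was 0.01. The part of Fcgr1 in the result was not tested. As deposited, 474 genes were higher and 832 lower, in place of 573 and 606.

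In wild type at 24 h all 6 genes were above the unstimulated level, as were 45.5% of 6965 genes, and 3 were past 2-fold, beside 10.6% of genes higher and 10.7% lower. Ciita was at least 3.02-fold higher, H2-Eb1 2.35-fold and H2-Ab1 2.25-fold. Cd74 was 1.99-fold, H2-DMa 1.82-fold and H2-Aa 1.48-fold higher, and the dimmer H2-Aa probe set 2.38-fold. The median was 1.08, against -0.07 over all genes. Every one of the 6 lay within the central range of all genes, -1.71 to 2.20. The number past 2-fold depended on scaling: it was 1 as deposited, where the median of all genes lay at -0.66, and 6 with equal medians. Over all genes the counts past 2-fold were 740 upward and 742 downward, which became 365 and 2199 with deposited intensities and 942 and 605 with equal medians.

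The step between 6 and 24 h of LPS does not use the unstimulated arrays and had 1 direction in all 3 conditions, with each gene compared above 0, as were 55.5% of all genes in CD14-deficient cells, 51.7% with EGTA and 51.4% in wild type. In CD14-deficient cells 4 of 5 genes were at least 2-fold higher at 24 h than at 6 h, beside 4.32% of 6831 genes higher and 6.16% lower, led by H2-DMa at 2.79-fold and Cd74 at 2.41-fold, with H2-Eb1 at 1.91-fold. With EGTA 5 of 6 were, beside 5.6% of 6887 genes higher and 6.14% lower, led by H2-Eb1 at 5.41-fold and H2-Ab1 at 5.07-fold. In wild type 5 of 6 were, beside 5.5% of 6835 genes higher and 5.56% lower, led by Cd74 at 4.14-fold.

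Medians of this step were 1.19 in CD14-deficient cells, 2.04 with EGTA and 1.81 in wild type, against 0.06, 0.02 and 0.02 over all genes. In wild type and with EGTA all 5 structural genes lay above the central 95% of genes, which ended at 1.31 in wild type and 1.33 with EGTA. In CD14-deficient cells Cd74 and H2-DMa lay above its upper end of 1.22. H2-Aa, H2-Ab1 and H2-Eb1 lay within it there, at 1.11, 1.19 and 0.93. The dimmer H2-Aa probe set, at 1.46, and the other H2-Ab1 probe sets, at 1.76 and 1.70, lay above that end. The place of these 2 genes therefore depends on the probe set. Ciita lay within the central 95% with EGTA, 1.42-fold higher, and in wild type, 1.29-fold higher, and as deposited its wild-type value turned below 0. In CD14-deficient cells it was too dim to compare. As deposited the genes past 2-fold upward and downward were 513 and 317 in CD14-deficient cells in place of 295 and 421, 1083 and 165 with EGTA in place of 386 and 423, and 110 and 1269 in wild type in place of 376 and 380.

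**Figure D2:**
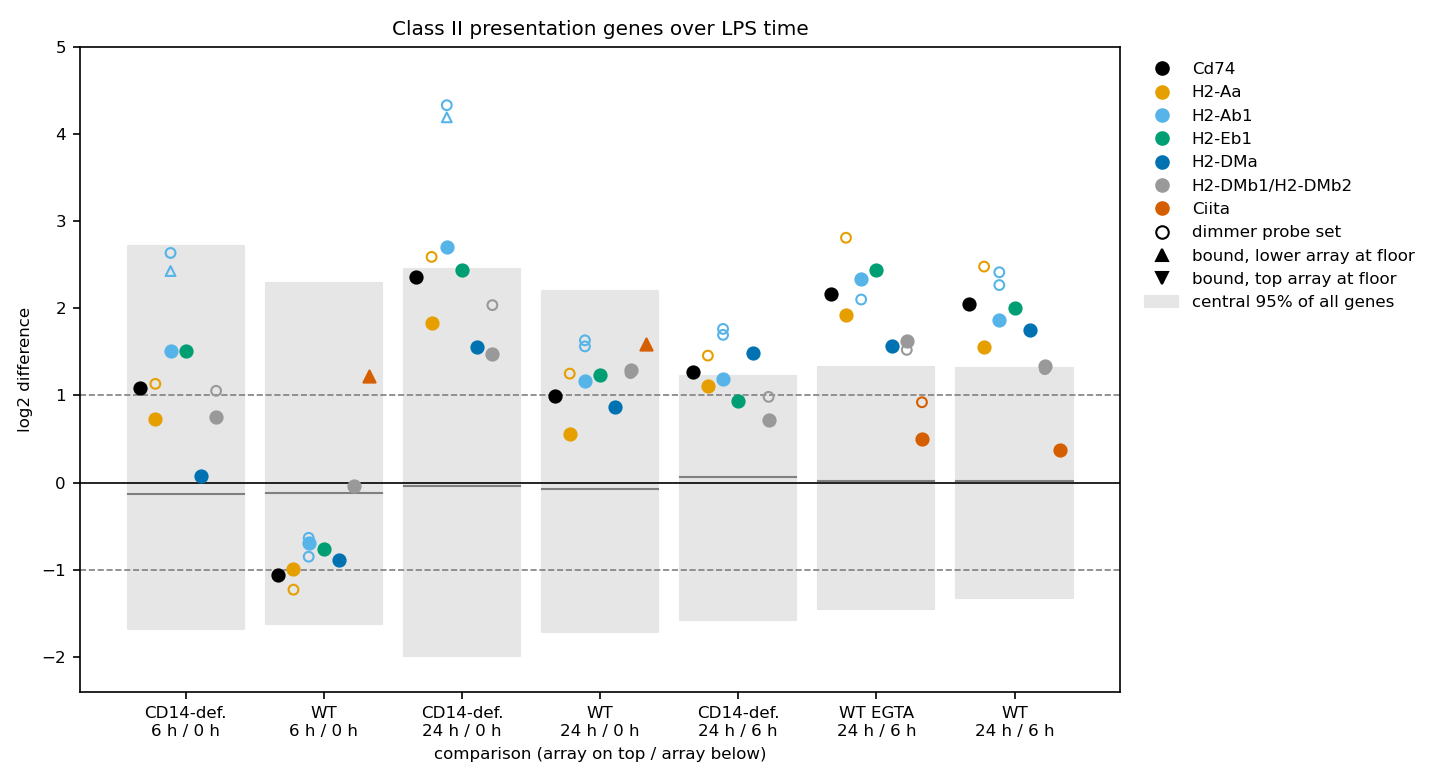
Log2 difference of each class II probe set for 7 comparisons over LPS time, with CD14-deficient cells left of wild type; grey boxes span the central 95% of all genes compared with their median as a line, dashed lines mark 2-fold, open symbols are dimmer probe sets and triangles are bounds. At 6 h over 0 h the structural genes lie above 0 in CD14-deficient cells (H2-DMa lies below 0 with intensities as deposited) and below 0 in wild type, and at 24 h over 6 h all members lie above 0 in all 3 conditions, except that Ciita in wild type lies below 0 with intensities as deposited.

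Between the genotypes the class II genes stood farthest apart before LPS. In unstimulated CD14-deficient cells all 5 genes compared were past 2-fold below wild type, beside 3.2% of 6782 genes lower and 1.4% higher. Cd74 was 5.61-fold lower, H2-Eb1 4.87-fold, H2-Aa 4.67-fold and H2-Ab1 4.31-fold lower, and H2-DMa lay at -1.32 in log2. Their median was -2.22, against 0.02 over all genes, and each lay below the central 95% of genes, which began at -1.23.

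The dimmer probe sets were farther apart still, with H2-Aa at 6.60-fold lower and H2-Ab1 at 7.77-fold and at least 9.29-fold lower. The shared H2-DMb probe sets were 2.75-fold and 1.74-fold lower. The macrophage marker Fcgr1, which encodes a high-affinity IgG receptor, was 2.42-fold lower on the same array, at 2833 against 6842 in wild type. It was the 1 of 7 macrophage markers past 2-fold, and the median log2 difference of the 7 was 0.04. The part of Fcgr1 in the result was not tested. Ciita was at the floor in both genotypes and gives no comparison. The number of members past 2-fold was 5 under each alternative processing tried. RNA from fewer class II-expressing cells and less class II RNA per cell cannot be told apart in such bulk samples.

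After 6 h of LPS most of that distance was gone. None of the 6 genes was at least 2-fold different between CD14-deficient and wild-type cells, where 2.53% of 6761 genes were higher and 3.08% lower. The values ran from -0.63 for Ciita through -0.50 for H2-Aa, -0.35 for H2-DMa and -0.34 for Cd74 to -0.01 for H2-Eb1 and 0.09 for H2-Ab1. As deposited H2-Ab1 also lay below 0, and 99 genes were higher and 447 lower in place of 171 and 208.

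At 24 h all 6 genes were lower in CD14-deficient cells, where 48.3% of 6846 genes lay below 0. Past 2-fold were 2 of them, beside 6.21% of genes lower and 5.21% higher. Cd74 was 2.18-fold lower and H2-Eb1 2.11-fold lower. H2-Aa was 1.93-fold, Ciita 1.81-fold, H2-DMa 1.54-fold and H2-Ab1 1.49-fold lower. Their median was -0.90, against 0.02 over all genes, and all 6 lay within the central 95% of genes, -1.51 to 1.30. As deposited none was at least 2-fold lower, while the median of all genes lay at 0.43 and 1089 genes were higher and 215 lower in place of 357 and 425. The 24 h CD14-deficient level of Cd74, 2602, was near the unstimulated wild-type level of 2851.

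EGTA was compared with LPS alone at the same hour in wild-type cells. At 6 h none of the 6 genes was at least 2-fold different, as were 0.549% of 6740 genes higher and 0.267% lower. All 6 lay above 0, where 50.9% of all genes did, with Ciita at 1.53-fold, H2-DMa at 1.44-fold, Cd74 at 1.38-fold, H2-Eb1 at 1.16-fold, and H2-Ab1 and H2-Aa at 1.05-fold each. The other H2-Ab1 probe sets gave 1.65-fold and 1.74-fold, so this gene's size is uncertain. The median was 0.34, against 0.01 over all genes. As deposited all 6 lay below 0 with a median of -0.45, beside -0.78 over all genes, so the direction at 6 h holds only relative to the other genes, and the counts over all genes were 2 higher and 1353 lower in place of 37 and 18.

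At 24 h EGTA again left all 6 genes above the LPS array and none past 2-fold, beside 1.02% of 6754 genes higher and 1.11% lower. Ciita was 1.68-fold higher, H2-Eb1 1.57-fold, Cd74 1.48-fold, H2-Ab1 1.47-fold, H2-Aa 1.35-fold and H2-DMa 1.26-fold. All 10 probe sets compared lay above 0, from 0.34 to 0.90, where 50.4% of genes did. The median was 0.56, against 0.00 over all genes and within their central 95% of -0.74 to 0.75. The direction was the same as deposited, with a median of 0.71 beside 0.16, and with equal medians, at 0.56, while the genes past 2-fold upward and downward were 115 and 42 as deposited in place of 69 and 75. This array had the lowest cRNA yield, whose part in the result was not tested.

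The CD14-deficient and the EGTA arrays were set against 1 shared wild-type LPS array at each hour, so the signs of these differences are not independent. Side by side, Cd74 at 24 h stood at -1.12 with CD14 deficiency and 0.57 with EGTA, H2-Eb1 at -1.07 and 0.65, and Ciita at -0.85 and 0.75.

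**Figure D3:**
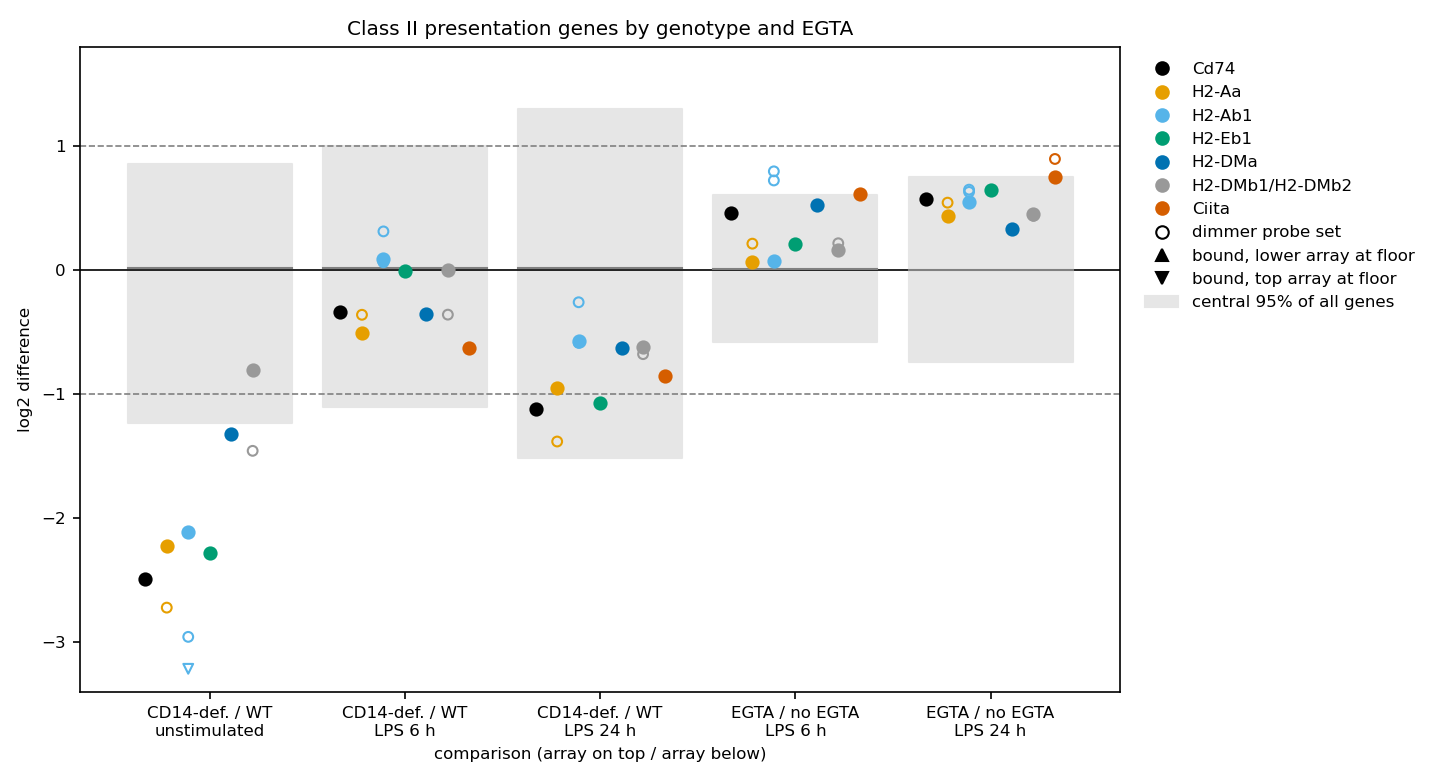
Log2 difference of each class II probe set between CD14-deficient and wild-type cells at 0, 6 and 24 h of LPS and between LPS with EGTA and LPS alone at 6 and 24 h; boxes, lines and symbols are as in the plot over LPS time. On the probe sets that represent them, the 5 structural genes lie between -2.49 and -1.32 before LPS and between -0.50 and 0.09 at 6 h. Over all their own probe sets the ranges are -3.22 to -1.32 and -0.50 to 0.31. With EGTA all members lie between 0 and 1, although at 6 h they lie below 0 with intensities as deposited.

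Probe sets of 1 gene were read on the same arrays. How far they differ shows disagreement between probe sets and is no measure of variation between samples. Over 12 comparisons the log2 differences of the H2-Aa probe sets spread by 0.42 at the median and at most 0.93, and those of H2-Ab1 by 0.51 and at most 1.63. Neither gene had probe sets of opposite sign in any of them. Across the 8 arrays the 10 pairs of structural genes had Pearson correlations of log2 intensity from 0.94 to 0.99, and the 5 pairs with Ciita from 0.59 to 0.68. The arrays share genotypes and times, so these are descriptions of 8 points.

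Other genes of the pathway were taken from lists fixed for this set. Of the 5 other class II genes 3 were measured. H2-Oa, a subunit of the DM inhibitor DO, read between 38.4 and 41.1 on 6 arrays, 101 with EGTA at 24 h and 86.4 in wild type at 24 h. It was 2.46-fold higher at 24 h than at 6 h with EGTA. H2-DMb2 and H2-Ea are given above, and H2-Ob and H2-Eb2 were not analysed here.

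Of 8 antigen processing genes 6 were compared, and 1 of them passed 2-fold, in 1 of 12 comparisons. That was Sppl2a, a membrane protease that clears the last stub of the invariant chain, 2.09-fold higher at 24 h over 0 h in CD14-deficient cells. In that comparison 8.29% of all genes were higher by at least 2-fold. Ifi30, the thiol reductase that opens disulfide bonds of antigens, read 1794, 1454 and 926 in CD14-deficient cells at 0, 6 and 24 h, 1395 and 1177 with EGTA at 6 and 24 h, and 2199.7, 1358 and 1216 in wild type at 0, 6 and 24 h. It was lower after LPS in both genotypes. Lgmn, an asparagine-specific endosomal protease, read 9279.7, 5818 and 5648 in CD14-deficient cells, 7089 and 9219 with EGTA, and 10570.0, 6874 and 8461 in wild type. The cathepsin genes Ctsb, Ctsl and Ctss read between 11716 and 16788 on every array, near the top of the scale, where differences are compressed.

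All 7 genes of the class II transcription machinery were compared, and Rfx5 had the largest differences. It encodes a subunit of the RFX complex that binds the X box. Its intensity was 92.9, 421 and 228 in CD14-deficient cells at 0, 6 and 24 h, 552 and 362 with EGTA at 6 and 24 h, and 133, 623 and 398 in wild type at 0, 6 and 24 h. It was highest at 6 h in each condition, when the wild-type structural class II genes were lowest. In CD14-deficient cells the normalized values of those genes were above their unstimulated level at 6 h, with a median log2 difference of 1.09. LPS for 6 h left Rfx5 4.54-fold higher in CD14-deficient cells and 4.67-fold higher in wild type. It was the one gene of the 7 past 2-fold in either genotype at 6 or 24 h over 0 h. In these comparisons 8.29% to 10.6% of all genes were higher and 8.77% to 10.7% lower by that much. Rfxank, the RFX subunit with ankyrin repeats, was 2.18-fold higher at 24 h than at 6 h with EGTA. None of the 7 differed 2-fold between genotypes or with EGTA at a given hour. Few genes of any kind did. Between genotypes the shares of all genes were 1.4% to 5.21% upward and 3.08% to 6.21% downward. For EGTA they were 0.549% to 1.02% upward and 0.267% to 1.11% downward. The absence of calls therefore does not set this list apart. Nfyb, a subunit of the factor that binds the Y box, read 206, 279 and 180.2 in CD14-deficient cells, 285 and 149 with EGTA, and 214, 353 and 211 in wild type.

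Of 10 genes on the route by which interferon gamma reaches Ciita, 9 were measured. Ifng itself was at the floor on all 8 arrays. Irf1, a transcription factor that acts on a Ciita promoter, read 443, 4231 and 1825 in CD14-deficient cells at 0, 6 and 24 h, 5697 and 4703 with EGTA at 6 and 24 h, and 579.7, 5098 and 4801 in wild type at 0, 6 and 24 h. Jak2, a kinase of the interferon gamma receptor, read 263, 3276 and 1545 in CD14-deficient cells, 3761 and 2267 with EGTA, and 286, 4186 and 2553 in wild type. Both genes were highest at 6 h in every condition, and at 24 h the CD14-deficient Irf1 level was 2.63-fold below wild type.

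Socs1, a feedback inhibitor of that receptor's kinases, was at the floor in unstimulated CD14-deficient cells and read 298 and 261 there at 6 and 24 h, 850.2 and 1135 with EGTA at 6 and 24 h, and 88.3, 711 and 939.5 in wild type at 0, 6 and 24 h. Against wild type, the CD14-deficient level was at least 2.30-fold lower before LPS, 2.38-fold lower at 6 h and 3.60-fold lower at 24 h. Over the list, 5 of the 8 genes passed 2-fold upward and 1 downward at 6 h over 0 h in CD14-deficient cells, beside 10.3% and 8.99% of all genes. In wild type 4 and 0 did, beside 10.5% and 9.5%. None of the 8 differed 2-fold with EGTA at 6 h or 24 h. Over all genes 0.549% were higher and 0.267% lower with EGTA at 6 h, and 1.02% and 1.11% at 24 h. A few further values were chosen after they were seen. The receptor chain gene Ifngr2 was 2.72-fold and Ifngr1 2.09-fold higher in CD14-deficient cells at 6 h, and Irf8 was 2.17-fold higher there at 24 h.

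**Figure D4:**
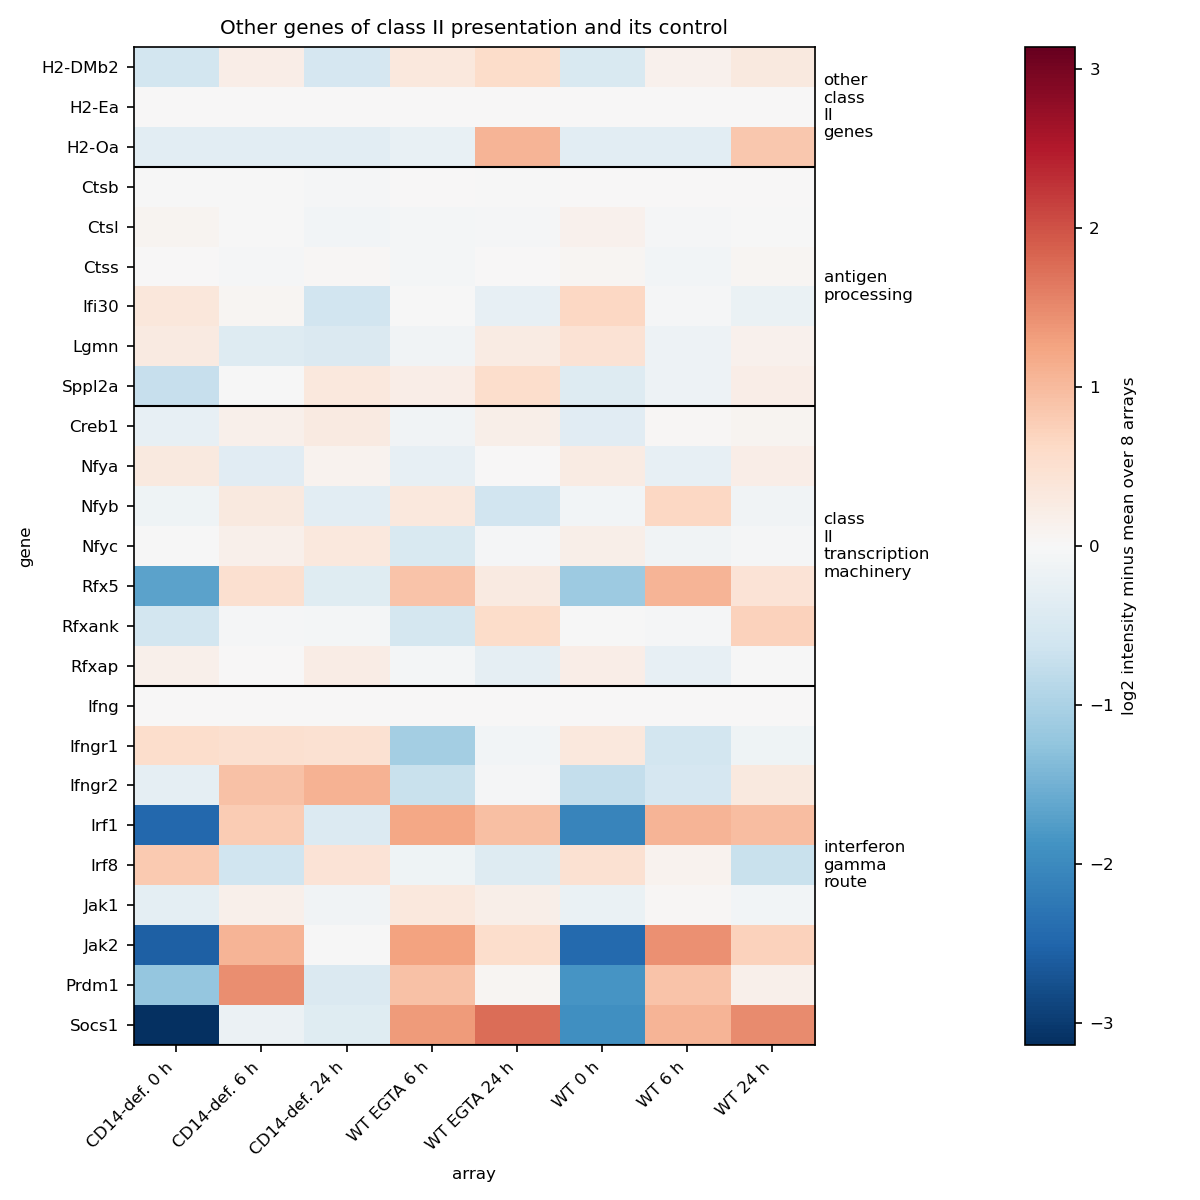
Log2 intensity minus its mean over the 8 arrays for 25 other genes in 4 lists, with arrays as columns. Rfx5, Irf1, Jak2 and Socs1 are lowest on both unstimulated arrays, the cathepsin genes are flat, and H2-Ea and Ifng are at the floor throughout.

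Of 6 dendritic cell markers measured, Flt3, Zbtb46, Ccr7, Cd209a and Xcr1 were at the floor on all 8 arrays. Itgax, which macrophages also express, read 406, 264 and 207 in CD14-deficient cells at 0, 6 and 24 h, 101 and 207 with EGTA at 6 and 24 h, and 299, 144 and 147 in wild type at 0, 6 and 24 h, so it was highest on the unstimulated CD14-deficient array, where the structural class II genes were lowest, and its part in those results was not tested. The summed intensity of these 6 ran from 293 to 598 over the arrays. Of 5 B cell markers Cd79a, Cd79b, Ms4a1 and Pax5 were at the floor on all arrays, with the sum over all 5 from 205 to 398. Ighm read 187, 124 and 57.1 in CD14-deficient cells at 0, 6 and 24 h, 245 and 52.0 with EGTA at 6 and 24 h, and 55.1, 222 and 102 in wild type at 0, 6 and 24 h. It was 3.39-fold higher in unstimulated CD14-deficient cells than in unstimulated wild type, and 4.03-fold higher in wild type at 6 h than at 0 h, both where the structural class II genes were lower, and its part in those results was not tested. Of 6 T and NK cell markers 5 were at the floor on all arrays, with the sum over all 6 from 230.2 to 328. Cd4 was at the floor in unstimulated CD14-deficient cells and read 78.2 and 64.2 there at 6 and 24 h. It read 95.1 and 136 with EGTA at 6 and 24 h, and 74.4, 89.1 and 72.3 in wild type at 0, 6 and 24 h. Its lowest and highest arrays were those of the structural class II genes, and its part in those results was not tested.

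The genes with a pattern most like the mean of the 6 members over the 8 arrays were sought among 3886 genes that spanned at least 2-fold. In order they were Ppp2r3c (r = 0.99), Mrpl27 (0.98), Pdlim2 (0.97), Cd52 (0.97), Unc93b1 (0.97), P2rx4 (0.96), Ly86 (0.96), LTO1 (0.96), Flad1 (0.96) and Psme4 (0.96). Their range was smaller than that of Cd74 for all 10. Ly86, which encodes the partner of the LPS receptor relative CD180, spanned 2.42 in log2 and read 867, 1212 and 1880.5 in CD14-deficient cells at 0, 6 and 24 h, 2043 and 4422 with EGTA at 6 and 24 h, and 2031, 1945 and 4650.4 in wild type at 0, 6 and 24 h. Unc93b1, which carries nucleic acid-sensing Toll-like receptors to endosomes, read 1182, 1900.2 and 2837 in CD14-deficient cells, 1878 and 3631 with EGTA, and 2326, 1816 and 3097 in wild type. The genes most like Ciita alone were Tceanc2 (0.99), Tlcd2 (0.98), Eif4g3 (0.98), Gtf2a1 (0.97) and Dapp1 (0.97), none of them among the 10 above. These are descriptions over 8 points, picked as the highest among 3886 genes.

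**Figure D5:**
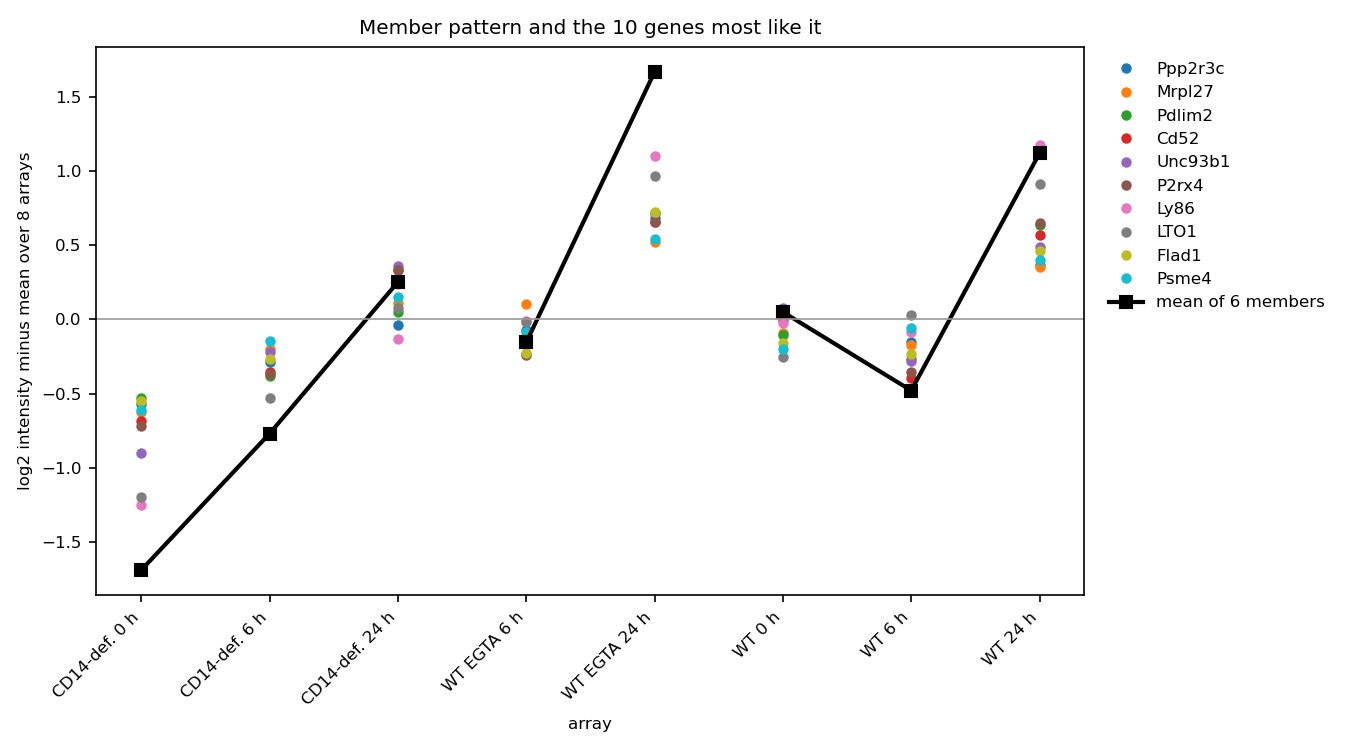
Log2 intensity minus its mean over the 8 arrays for the mean of 6 class II members (black squares, joined within a condition) and the 10 genes most like it (coloured points). The mean of the members spans -1.69 in unstimulated CD14-deficient cells to 1.67 with EGTA at 24 h, a wider span than any of the 10 genes.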

How the data were processed

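Affymetrix arrays of 8 samples, 1 per group, were used. The deposited values are linear signal intensities made by the authors with MAS5, per the submitters' processing notes; version and scaling are not given in the sources used here. Because their 2% trimmed means differed by over 10%, they were quantile normalized, raised to the 40th percentile as a floor and log2 transformed (Python 3.11.15, numpy 2.4.6, pandas 2.3.3). Quantile normalization removes any shift common to all genes. Gene names came from the platform annotation, updated through a RefSeq table of GRCm38.p6: of 22690 probe sets 20393 had 1 gene, of which 20364 matched by gene identifier, and 691 had several. The probe set with the highest mean log2 stood for its gene. Members, lists and motifs were chosen with earlier results of these data known. Of each other list the 3 genes with the largest difference were named, plus Irf1 and H2-Ea, and 10 genes most like the members and 5 most like Ciita. The 12 comparisons are single pairs of arrays, with no test, tried under 5 other settings and 1 added after the data were seen. Fold calls were checked on simulated data, with bright genes only, an assumed noise, and changes that were absent or well past 2-fold. That check does not cover dim genes such as Ciita or differences near 2-fold.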

Additional observations from a re-analysis of the deposited data

Results flagged for a closer look

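With 1 array per group, some members had log2 differences of opposite sign in a pair of groups under the same contrast, and none of these differences between groups was tested. After 6 h of LPS, Cd74, H2-Aa, H2-Ab1, H2-Eb1 and H2-DMa were above the unstimulated array in CD14-deficient cells and below it in wild type. The CD14-deficient minus the wild-type log2 response was 2.15 for Cd74, 1.72 for H2-Aa, 2.20 for H2-Ab1, 2.28 for H2-Eb1 and 0.97 for H2-DMa. Each is from the probe set that represents the gene. The unstimulated arrays carry these values, since at 6 h the same genes differed between genotypes by at most 0.50 in size. H2-Ab1 also stood slightly above wild type in CD14-deficient cells at 6 h and below it at 24 h, a change of -0.67. With intensities as deposited, H2-DMa at 6 h in CD14-deficient cells and this 6 h value of H2-Ab1 lay below 0 too, so neither had opposite signs.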

How the results depend on the processing

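The number of arrays limits the precision, since no group has a replicate, and low intensities such as those of Ciita are imprecise. No paired analysis was possible because each group has 1 array and the result comes from no test. In wild type at 6 h over 0 h, the mean over probe sets gave 0 members at least 2-fold higher and 2 lower, in place of 1 and 1, since Ciita was then too dim to compare and H2-Aa passed, and equal medians gave 0 lower. As deposited 1 was lower, H2-DMa in place of Cd74. In wild type at 24 h over 0 h, the members higher were 1 as deposited and 6 with equal medians, in place of 3. In CD14-deficient against wild-type cells at 24 h, 0 members were lower as deposited, in place of 2. With equal medians and with the mean over probe sets 3 were. Of 402 single-gene values under the alternatives, 387 kept their side of 2-fold, 7 lost it, 8 gained it and 0 of those past 2-fold turned direction. Many of the 402 could not have changed. No filter on dim genes and counting the shared H2-DMb probe set, the latter added after the data were seen, cannot alter another member's value. Each of these 2 settings holds 68 of the values. The mean over probe sets cannot alter a gene with 1 probe set. As deposited 60 of 68 values kept their side of 2-fold, and with equal medians 63 of 68 did. A floor at the 20th percentile moved no single-gene call.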
